A study of Mus musculus with 12 samples.

Results

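The genes described here carry or restrain the signal of TREM2, a lipid-sensing receptor of microglia, through its adaptor DAP12, together with *Inpp5d*. They were chosen by name as the receptor, adaptor, kinase, scaffold, lipase, phosphatase and membrane genes *Trem2*, *Tyrobp*, *Hcst*, *Lyn*, *Syk*, *Blnk*, *Plcg2*, *Inpp5d* and *Bin1*. All 9 were found in the count table, which holds 47643 gene identifiers, 18571 of them with at least 1 count. The data are 10 bulk 3′ RNA libraries, made from viable cells sorted out of the brains of 5 aged p16-3MR males on a C57BL/6 background. Mice 1 to 5 were 113, 115, 116, 116 and 116 weeks of age, and each gave 1 library of cells with low red fluorescence (RFPLow, RFPneg in the labels) and 1 of cells with high fluorescence (RFPHigh, RFPpos in the labels). The mouse is therefore the replicate, and the libraries were compared within mice. Both groups carry the same transgene, in which the p16 promoter drives a red fluorescent protein fused to Renilla luciferase and a truncated viral thymidine kinase, so the groups differ in reporter signal and not in genotype, age or treatment. The sort used viability, DNA content and reporter fluorescence, with no antibody against a cell type. The 2 single-cell samples of the series were not analysed here.

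TREM2 has almost no signalling tail of its own. When it binds lipids, lipoproteins or cell debris, tyrosines in the tail of DAP12, the product of *Tyrobp*, are phosphorylated by Src family kinases such as LYN. The kinase SYK docks there and acts through scaffolds such as BLNK on phospholipase C gamma 2, which releases calcium and diacylglycerol, and on PI3 kinase. DAP10, the product of *Hcst*, links to PI3 kinase, and SHIP1, the product of *Inpp5d*, removes the phosphate that PI3 kinase adds to membrane lipids and so limits the signal. In humans, *TREM2*, *PLCG2*, *INPP5D* and *BIN1* lie at loci of inherited risk for Alzheimer's disease.

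The RFPLow libraries held 177287 to 415834 gene counts (median 248471), and the RFPHigh libraries 222560 to 289713 (median 242798). Levels are given as CPM, relative to the gene counts of a library. Each transcript gives 1 tag at its 3′ end, so levels were compared between genes without division by length. A gene was tested with edgeR's quasi-likelihood test, with the mouse as a block and library sizes scaled by the trimmed mean of M values (the TMM scale), when at least 5 libraries reached the 40.7 CPM that equal 10 counts in the median library. Of the 9 genes, 7 passed this minimum among 4210 tested genes. *Hcst* and *Syk* did not, and a second fit covered them with the 12270 genes of at least 10 counts in total. Each adjusted p below is a Benjamini-Hochberg value of edgeR over all genes of the fit, and a gene was called at an adjusted p under 0.05.

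On the TMM scale, 6 of the 9 genes were called higher in RFPHigh (*Trem2*, *Tyrobp*, *Lyn*, *Blnk*, *Inpp5d* and *Bin1*), against 10.1% of all tested genes (427 of 4210). In 4 of them (*Lyn*, *Blnk*, *Inpp5d* and *Bin1*) the log2 fold change was also above 1, against 5.75% of all tested genes (242 of 4210), and this held for 2 of the 9 without mouse 4 (215 of all tested genes) and for 1 with the counts on no gene in the library sizes (149 of all). The same 4 genes were those without overlap between the populations, the lowest RFPHigh library lying above the highest RFPLow library, as was so for 8.05% of tested genes (339 of 4210). edgeR called 0 of the 9 lower, against 11.6% of tested genes (489 of 4210). DESeq2 and limma-voom also called 0 lower, and 0 had an unadjusted p under 0.05 in that direction. In the second fit, neither *Hcst* nor *Syk* was called, where 3.73% of genes (458 of 12270) were called higher and 1037 lower. In the first fit, the median log2 fold change was 1.03 over the 7 genes and −0.03 over all tested genes. With *Hcst* and *Syk* added from the second fit, it was 0.80 over the 9 genes. The median over all genes of the second fit was −0.22.

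The share of microglia genes also differed between the populations. A list of 20 microglia genes, none of them among the 9, took 2.20%, 1.46%, 1.55%, 1.45% and 2.02% of the gene counts in the RFPLow libraries of mice 1 to 5, and 4.17%, 3.62%, 3.84%, 3.63% and 3.15% in their RFPHigh libraries. Its share was thus higher in RFPHigh in 5 of 5 mice without overlap. All 20 genes of this microglia core were called higher in RFPHigh, with log2 fold changes from 0.63 (*Cd53*) to 1.64 (*Fcrls*) and a median of 1.12. In bulk libraries, fewer cells of a type and less RNA per cell cannot be told apart. The fit was therefore repeated with library sizes taken from the summed counts of the microglia core, a scale on which a log2 fold change of 0 means a gene that moved with these 20 genes. This scale moved the median of all tested genes by −1.09, and the split of calls from 427 higher and 489 lower to 11 higher and 3032 lower. On it, edgeR called 0 of the 9 genes higher, against 0.261% of tested genes, and 0 of the 9 had an unadjusted p under 0.05 in that direction. It called *Tyrobp* lower, where 72% of tested genes were called lower, and in the second fit *Hcst*, where 47.1% (5782 of 12270) were.

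**Figure D1:**
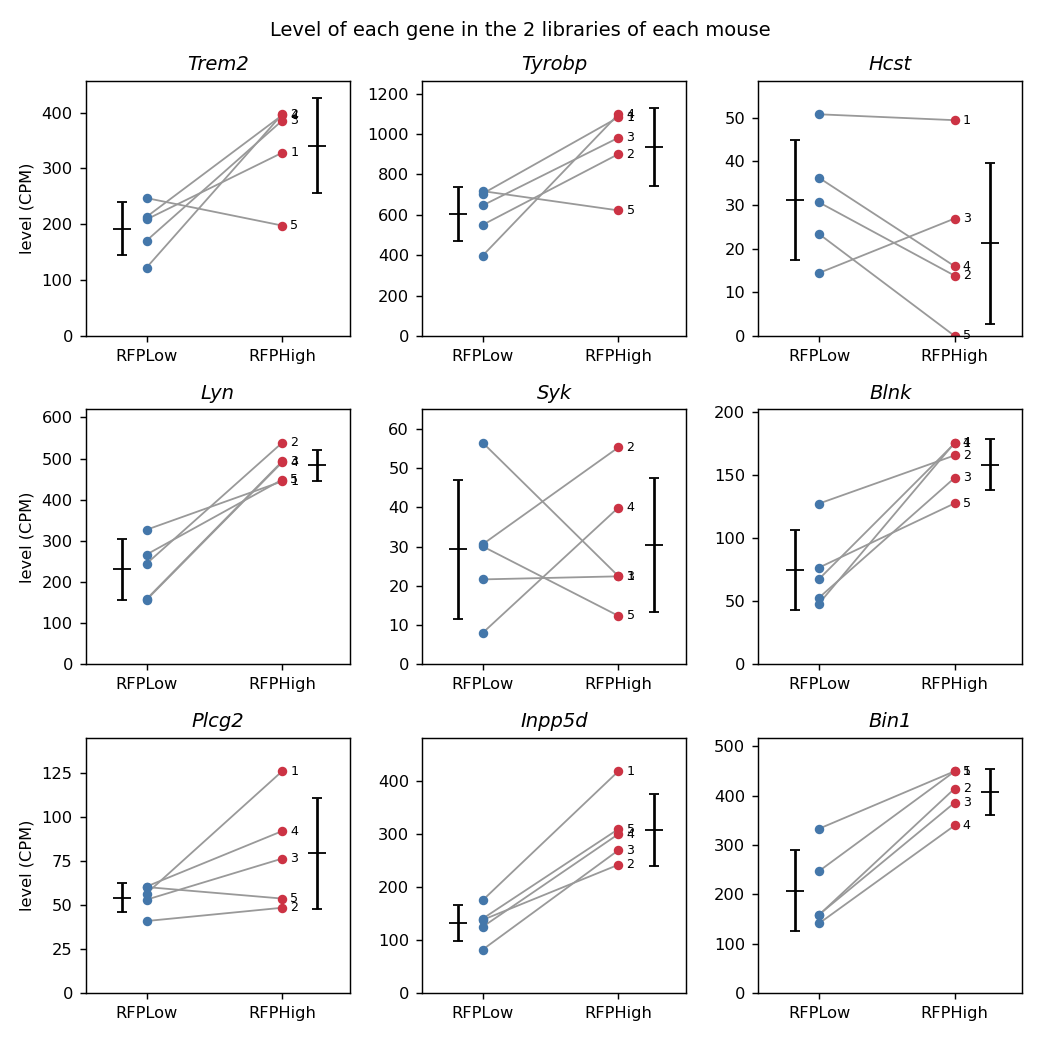
Level in CPM (vertical axes, from 0) of each of the 9 genes in the RFPLow (blue) and RFPHigh (red) library of each mouse, joined by a line and numbered by mouse, with the mean ± SD of each population beside the points. *Lyn*, *Blnk*, *Inpp5d* and *Bin1* are higher in RFPHigh in 5 of 5 mice without overlap. *Trem2* and *Tyrobp* are higher in 4 of 5 and are lower in the RFPHigh library of mouse 5. On the microglia core scale, which is not drawn here, the log2 fold changes of *Trem2*, *Tyrobp*, *Hcst*, *Syk* and *Plcg2* lie below 0. Those of *Lyn*, *Blnk*, *Inpp5d* and *Bin1* lie near 0 on that scale.

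The bases before the start site of 4 of the genes are shown because 3 of these, *Inpp5d* and *Blnk*, which were called higher, and *Hcst*, which was not called, share a short stretch of letters. RefSeq promoters (GRCm38.p6) were searched for 6 of the 9 genes, *Trem2*, *Hcst*, *Syk*, *Blnk*, *Plcg2* and *Inpp5d*. Those of *Tyrobp*, *Lyn* and *Bin1* were not searched, so whether they hold this stretch is not known. The 7 letters AGGAAGT, which hold the GGAA core bound by ETS factors such as PU.1, were searched on both strands of the 250 bases before each start. They were chosen after these sequences had been seen. They occurred in *Inpp5d*, *Blnk* and *Hcst* and not in these windows of *Trem2*, *Syk* or *Plcg2*, and 7.69% of all 32851 promoters hold them. The *Inpp5d* window is chr1:87620062-87620311 on the plus strand, with a match starting 19 bases before the start site. That of *Blnk* is chr19:40994222-40994471 on the minus strand, with a match 202 bases before the start. This is a RefSeq start site that lies inside the GENCODE interval given for *Blnk* below, and not at its end. That of *Hcst* is chr7:30419855-30420104 on the minus strand, with matches 46 and 17 bases before the start, and that of *Trem2* is chr17:48346151-48346400 on the plus strand. Capitals mark the matches, and all are on the strand of the gene. A match describes the letters and is not evidence of binding.
Inpp5d: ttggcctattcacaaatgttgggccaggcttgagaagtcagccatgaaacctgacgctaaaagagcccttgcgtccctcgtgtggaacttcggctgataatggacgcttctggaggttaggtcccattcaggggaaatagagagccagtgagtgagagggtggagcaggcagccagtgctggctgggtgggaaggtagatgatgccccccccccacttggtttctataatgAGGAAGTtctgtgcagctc
Blnk: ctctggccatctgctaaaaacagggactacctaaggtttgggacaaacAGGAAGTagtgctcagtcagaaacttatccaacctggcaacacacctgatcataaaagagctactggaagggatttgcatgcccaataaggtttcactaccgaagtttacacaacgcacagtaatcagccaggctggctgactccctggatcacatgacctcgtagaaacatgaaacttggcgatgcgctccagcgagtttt
Hcst: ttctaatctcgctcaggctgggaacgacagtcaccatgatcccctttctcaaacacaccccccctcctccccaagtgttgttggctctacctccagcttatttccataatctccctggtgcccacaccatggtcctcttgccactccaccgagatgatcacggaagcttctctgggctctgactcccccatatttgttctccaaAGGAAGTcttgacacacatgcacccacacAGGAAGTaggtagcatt
Trem2: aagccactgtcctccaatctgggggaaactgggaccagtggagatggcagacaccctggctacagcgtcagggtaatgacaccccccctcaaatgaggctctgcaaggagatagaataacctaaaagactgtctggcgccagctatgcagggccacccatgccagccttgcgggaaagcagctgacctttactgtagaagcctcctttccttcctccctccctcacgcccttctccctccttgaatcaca

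*Trem2* (ENSMUSG00000023992; GRCm38 chromosome 17, 48346401 to 48354147, plus strand) encodes the receptor itself. It had 209, 122, 171, 213 and 247 CPM in the RFPLow libraries of mice 1 to 5 and 328, 397, 386, 395 and 198 CPM in their RFPHigh libraries. The RFPHigh library was higher in 4 of 5 mice, and that of mouse 5 was lower than its own RFPLow library and within the RFPLow range, so the populations overlapped. The level was 192 ± 47.6 CPM in RFPLow and 341 ± 84.8 CPM in RFPHigh (SD, n = 5 each), and the log2 fold change was 0.80 (edgeR adjusted p = 0.0196, standard error 0.24). The call was lost with DESeq2 (adjusted p = 0.0645), with library sizes that include the counts on no gene (0.0917 from edgeR), and without mouse 2 (0.115) or mouse 3 (0.0954), with a range of 0.00239 to 0.115 over the mice left out. Without mouse 5 the log2 fold change of *Trem2* was 1.07. Relative to the microglia core it was −0.29 (edgeR adjusted p = 0.238, standard error 0.22), lower in 4 of 5 mice as a share of the core counts.

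*Tyrobp* (ENSMUSG00000030579; chromosome 7, 30413760 to 30417585, plus strand) encodes DAP12, the adaptor that TREM2 shares with several other receptors. It had 705, 551, 647, 398 and 717 CPM in the RFPLow libraries and 1083, 901, 982, 1098 and 622 CPM in the RFPHigh libraries of mice 1 to 5. As for *Trem2*, 4 mice were higher in RFPHigh and mouse 5 was lower, and the populations overlapped through mouse 5 alone. The level was 604 ± 132 CPM in RFPLow and 937 ± 193.5 CPM in RFPHigh (SD, n = 5 each), with a log2 fold change of 0.63 (edgeR adjusted p = 0.0294, standard error 0.20). This was about the lowest value of the 20 core genes, 0.63 for *Cd53*. The call of *Tyrobp* was lost with DESeq2 (adjusted p = 0.0882), with unscaled library sizes (0.0511 from edgeR), with the counts on no gene included (0.177), and without mouse 2 (0.0957), mouse 3 (0.0751) or mouse 4 (0.141, log2 fold change 0.45).

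As a share of the counts of the microglia core, *Tyrobp* stood at 3.21%, 3.78%, 4.17%, 2.75% and 3.55% in RFPLow and at 2.60%, 2.49%, 2.56%, 3.02% and 1.97% in RFPHigh. The share was lower in RFPHigh in 4 of 5 mice, mouse 4 being the exception. On the core scale the log2 fold change of *Tyrobp* was −0.47 (edgeR adjusted p = 0.0402, standard error 0.19). That call was lost in the second fit on the core scale (adjusted p = 0.0516), with a core of 10 surface and lineage genes (0.0560) and without mouse 2 (0.109), mouse 3 (0.142) or mouse 5 (0.109).

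*Hcst* (ENSMUSG00000064109; chromosome 7, 30417712 to 30419854, minus strand) encodes DAP10, an adaptor best known in natural killer and T cells, which can pair with DAP12 in myeloid cells. It is the neighbour of *Tyrobp*, with 126 bases between the ends of the 2 genes, which lie on opposite strands and point toward each other. Whether the counting used the strand is not given in the sources used here. There were 9, 6, 6, 9 and 7 counts in the RFPLow libraries and 11, 4, 6, 4 and 0 in the RFPHigh libraries of mice 1 to 5. The populations overlapped, and the 0 counts of mouse 5 allow a level of up to 12.4 CPM by counting error alone, taking 3 counts as the limit. The log2 fold change of *Hcst* was −0.70 (edgeR adjusted p = 0.571, standard error 0.59 in the second fit). Relative to the microglia core it was −1.81 (edgeR adjusted p = 0.00901, standard error 0.61), with a lower share of the core counts in RFPHigh in 5 of 5 mice, and the adjusted p was 0.0536 without mouse 4.

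*Hcst* or *Tyrobp* are also known in neutrophils, monocytes, T and NK cells and the macrophages at the borders of the brain. Of 8 T and NK cell markers, 7 had counts in RFPLow, 134 in all, with *Trbc2* the most abundant (53 counts), and all 8 were at 0 in every RFPHigh library. The 7 neutrophil markers, led by *S100a8*, took 0.258%, 0.284%, 0.723%, 0.433% and 0.236% of the counts in RFPLow and 0.00539%, 0.0104%, 0.0193%, 0.000399% and 0% in RFPHigh, with *Mmp9* at 0 in RFPHigh. The 6 monocyte markers, led by *H2-Aa*, took from 0.0699% to 0.0904% in RFPLow and from 0.0027% to 0.0164% in RFPHigh, with *Ly6c2* and *Chil3* at 0 in RFPHigh. All 3 shares were lower in RFPHigh in 5 of 5 mice. The 7 markers of border macrophages, led by *Mrc1*, took from 0.0168% to 0.0217% in RFPLow and from 0.0144% to 0.0311% in RFPHigh, with overlap. Their share was lower in RFPHigh in 4 of 5 mice and higher in mouse 2 (0.0184% and 0.0311%), and the genes went both ways, *Mrc1* being higher in 4 of 5 mice and *F13a1* and *Ms4a7* lower in 5 of 5. The part of these cells in the values of *Tyrobp* and *Hcst* on the core scale was not tested.

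**Figure D2:**
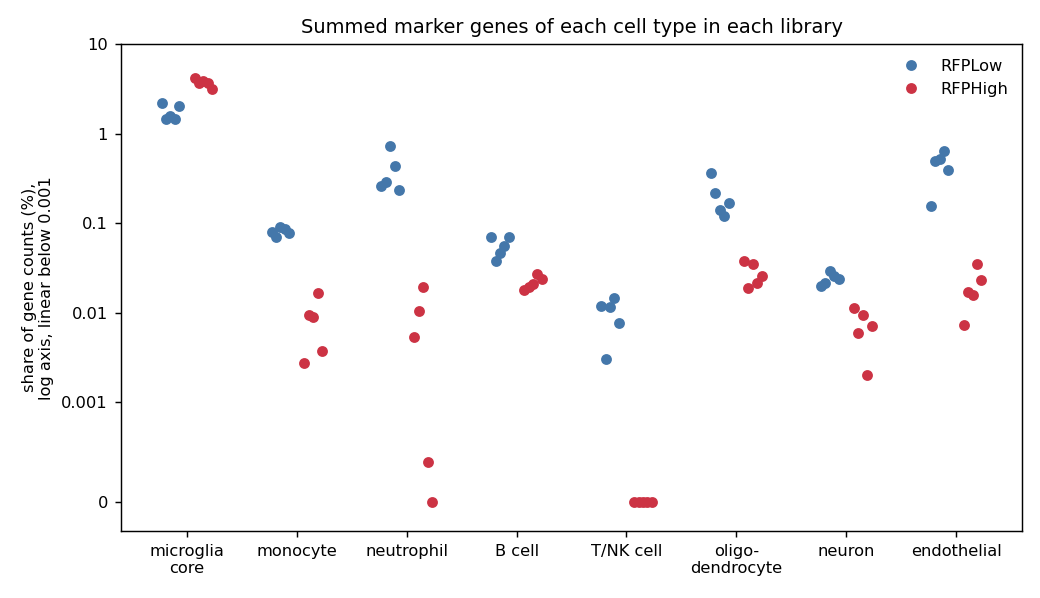
Share of gene counts in percent (vertical axis, logarithmic above 0.001 and linear below) taken by the summed markers of 8 of 11 cell types in each RFPLow (blue) and RFPHigh (red) library, 1 point a library. The microglia core is higher in every RFPHigh library, and the other 7 lists drawn are lower in each mouse. Among these, the 8 endothelial markers took from 0.155% to 0.646% in RFPLow and from 0.00719% to 0.0351% in RFPHigh. Border macrophages and astrocytes, which were not lower in every mouse, are not drawn. Nor are mural cells, whose markers were lower in RFPHigh in 5 of 5 mice.

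*Lyn* (ENSMUSG00000042228; chromosome 4, 3678115 to 3813122, plus strand) encodes a Src family kinase that phosphorylates both activating and inhibitory receptors. It had 327, 245, 159, 157 and 267 CPM in the RFPLow libraries and 445, 538.5, 493, 491 and 449 CPM in the RFPHigh libraries of mice 1 to 5. Every RFPHigh library lay above every RFPLow library, and the RFPHigh values were close to each other (483 ± 38.3 CPM, against 231 ± 73.2 CPM in RFPLow; SD, n = 5 each). The log2 fold change of *Lyn* was 1.11 (edgeR adjusted p = 4.15e-04, standard error 0.20), and relative to the microglia core it was 0.02 (edgeR adjusted p = 0.926, standard error 0.20). The gene overlaps 4 annotated genes on the minus strand (*Gm26857*, *Gm11805*, *Gm22781* and *9430025C20Rik*), whose reads cannot be told apart from those of *Lyn* if the counting did not use the strand.

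*Syk* (ENSMUSG00000021457; chromosome 13, 52583173 to 52648792, plus strand) encodes the kinase that binds phosphorylated DAP12. Its counts were 10, 6, 9, 2 and 9 in the RFPLow libraries and 5, 16, 5, 10 and 3 in the RFPHigh libraries. The populations overlapped over nearly their whole range, and *Syk* was higher in RFPHigh in 3 of 5 mice. At a fitted log2 fold change of 0.08 with a standard error of 0.54 (edgeR adjusted p = 0.965 in the second fit), no difference was detectable at this depth, and the error spans both a fall and a rise of the size seen for *Trem2* or *Tyrobp* within 2 standard errors. On the core scale the log2 fold change of *Syk* was −1.01 (edgeR adjusted p = 0.122, standard error 0.56).

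*Blnk* (ENSMUSG00000061132; chromosome 19, 40928927 to 40994535, minus strand) encodes a scaffold between SYK and phospholipase C gamma, known from B cell receptor signalling and also present in microglia. It had 67.7, 127.5, 52.9, 48.3 and 76.8 CPM in the RFPLow libraries and 175, 166, 148, 176 and 128 CPM in the RFPHigh libraries of mice 1 to 5. The populations did not overlap, by a margin of less than 1 CPM between the RFPLow library of mouse 2 and the RFPHigh library of mouse 5. The log2 fold change of *Blnk* was 1.12 (edgeR adjusted p = 0.00433, standard error 0.26). Relative to the microglia core it was 0.03 (edgeR adjusted p = 0.916, standard error 0.29).

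The 6 B cell markers took from 0.0372% to 0.0697% of the counts in RFPLow and from 0.018% to 0.0271% in RFPHigh, lower in RFPHigh in 5 of 5 mice. *Igkc*, the most abundant of them in RFPLow, carried most of this, with 308 ± 76.2 CPM in RFPLow and 1.59 ± 2.20 CPM in RFPHigh (SD, n = 5 each). *Ighm*, the most abundant over both populations, had 291 and 254 counts and was not called (−0.06, edgeR adjusted p = 0.892). The defining markers *Cd79a* and *Ms4a1* had 3 and 11 counts in RFPLow and 0 and 3 in RFPHigh, beside 94 and 195 counts of *Blnk*.

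*Plcg2* (ENSMUSG00000034330; chromosome 8, 117498291 to 117635142, plus strand) encodes the phospholipase C of this pathway, which splits a membrane phosphoinositide into the calcium-releasing and diacylglycerol messengers. It had 56.4, 40.8, 52.9, 60.4 and 60.1 CPM in the RFPLow libraries and 126, 48.3, 76.2, 91.8 and 53.5 CPM in the RFPHigh libraries of mice 1 to 5. The RFPLow values lay close together, the RFPHigh values were spread, and mouse 1 was the highest and mice 2 and 5 were within the RFPLow range. *Plcg2* was higher in RFPHigh in 4 of 5 mice, but it was not called, with a log2 fold change of 0.47 (edgeR adjusted p = 0.340, standard error 0.32). On the core scale it was −0.61 (edgeR adjusted p = 0.112, standard error 0.34). A microRNA gene, *Gm27361*, lies within *Plcg2* on the minus strand.

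*Inpp5d* (ENSMUSG00000026288; chromosome 1, 87620312 to 87720507, plus strand) encodes SHIP1, a 5-phosphatase of blood cells and microglia that removes the product of PI3 kinase and can bind DAP12. It had 175, 138, 81.8, 125 and 140.1 CPM in the RFPLow libraries and 418, 242, 269, 299 and 309 CPM in the RFPHigh libraries of mice 1 to 5. The populations did not overlap, and mouse 1 had the highest value in both. From 132 ± 33.6 CPM in RFPLow the level of *Inpp5d* rose to 307 ± 67.2 CPM in RFPHigh (SD, n = 5 each). Its log2 fold change, 1.24 (edgeR adjusted p = 1.90e-04, standard error 0.20), was the highest of the 9, with those of *Lyn*, *Blnk* and *Bin1* close below it. It lay between 1.14 and 1.34 when each mouse was left out.

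Relative to the microglia core, the log2 fold change of *Inpp5d* was 0.15 (edgeR adjusted p = 0.559, standard error 0.23). As a share of the core counts, *Inpp5d* stood at 0.796%, 0.945%, 0.527%, 0.860% and 0.693% in RFPLow and at 1.00%, 0.668%, 0.700%, 0.824% and 0.980% in RFPHigh. The share was higher in RFPHigh in 3 mice and lower in 2, and the ranges overlapped.

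*Bin1* (ENSMUSG00000024381; chromosome 18, 32377230 to 32435737, plus strand) encodes a protein that bends membranes during endocytosis. It had 333, 158, 159, 141 and 247 CPM in the RFPLow libraries and 449, 414, 386, 339 and 449 CPM in the RFPHigh libraries of mice 1 to 5. The populations did not overlap, though the RFPLow library of mouse 1 came close to the RFPHigh library of mouse 4. The log2 fold change of *Bin1* was 1.03 (edgeR adjusted p = 6.34e-04, standard error 0.19), and relative to the microglia core it was −0.05 (edgeR adjusted p = 0.807, standard error 0.20). A minus strand gene, *A830052D11Rik*, overlaps its start.

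*Bin1* is also known in oligodendrocytes and neurons, whose markers took a lower share of the counts in RFPHigh. The 10 oligodendrocyte markers, led by *Mbp*, took from 0.121% to 0.358% of the counts in RFPLow and from 0.0186% to 0.0377% in RFPHigh. The 6 neuron markers, led by *Stmn2*, took from 0.0197% to 0.0293% in RFPLow and from 0.002% to 0.0112% in RFPHigh. Both lists were lower in RFPHigh in 5 of 5 mice, and their part in the level of *Bin1* was not tested.

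**Figure D3:**
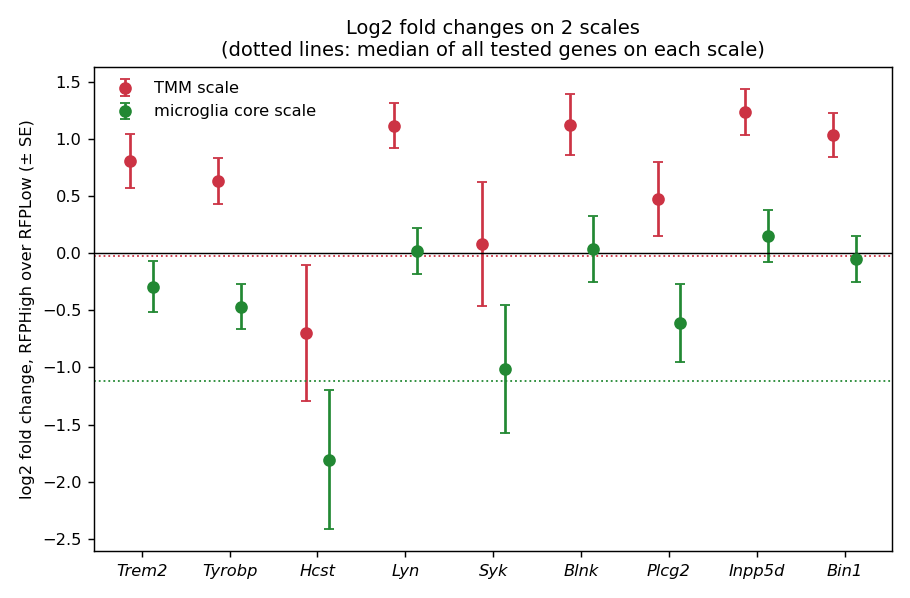
Log2 fold change of RFPHigh over RFPLow (vertical axis, ± standard error) of the 9 genes on the TMM scale (red) and relative to the microglia core (green), with the median of all tested genes on each scale as a dotted line (−0.03 and −1.12). *Lyn*, *Blnk*, *Inpp5d* and *Bin1* lie above 1 on the TMM scale and near 0 on the core scale. *Trem2*, *Tyrobp*, *Hcst*, *Syk* and *Plcg2* lie below 0 on the core scale.

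The order of levels was nearly the same in both populations. In the mean CPM of RFPLow it was *Tyrobp* (604), *Lyn* (231), *Bin1* (207.5), *Trem2* (192), *Inpp5d* (132), *Blnk* (74.6), *Plcg2* (54.1), *Hcst* (31.1) and *Syk* (29.4). *Tyrobp* stood above *Lyn* in 5 of 5 libraries without overlap, while every other pair of neighbours in RFPLow overlapped in range. In RFPHigh the means were *Tyrobp* 937, *Lyn* 483, *Bin1* 407.5, *Trem2* 341, *Inpp5d* 307, *Blnk* 158, *Plcg2* 79.1, *Syk* 30.5 and *Hcst* 21.2 CPM. There, *Inpp5d* stood above *Blnk* and *Blnk* above *Plcg2* in every library without overlap, as *Tyrobp* did above *Lyn*. Within the run of *Lyn*, *Bin1*, *Trem2* and *Inpp5d*, each gene overlapped in range with the next in both populations.

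The RFPHigh library of mouse 5 had the lowest RFPHigh level of *Trem2*, *Tyrobp*, *Hcst*, *Syk* and *Blnk*, but the second highest of *Inpp5d* (309 CPM), and *Bin1* was at 449 CPM, level with mouse 1. The same library had the lowest share of microglia core counts (3.15%) and the highest share of counts on no gene (48.6%, against 38.4% to 42.1% in the other RFPHigh libraries). Their part in these levels was not tested.

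The ratio of each gene to *Tyrobp* within a library does not depend on the scaling. The difference in log2 ratio between the 2 libraries of a mouse was compared by an exact two-sided permutation test within mice, for which 5 pairs give 32 assignments of which at least 2 are as large, so that it cannot fall below 2 of 32. The summed counts of *Inpp5d* were 20.2% of those of *Tyrobp* in RFPLow and 32.5% in RFPHigh. The log2 ratio was higher by 0.59 ± 0.66 (SD of the within-mouse differences, n = 5), in 4 of 5 mice, with the largest difference, 1.34, in mouse 5. In the exact test 6 of 32 assignments were as large. *Blnk* to *Tyrobp* was higher by 0.51 ± 0.52 in 4 of 5 mice (4 of 32), *Lyn* by 0.48 ± 0.51 in 4 of 5 (6 of 32), and *Bin1* by 0.40 ± 0.57 in 3 of 5 (8 of 32). For *Trem2* the mean difference was 0.18 ± 0.60, higher in 3 mice and lower in 2 (20 of 32). The differences of *Trem2* ran from −0.57 to 0.97, and its count was 22.2% of that of *Tyrobp* in the RFPLow library of mouse 2 and 53.5% in that of mouse 4.

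Of the genes with the fewest counts, the log2 ratio of *Hcst* to *Tyrobp* differed by −1.62 ± 1.47 and was lower in 4 of 5 mice (4 of 32 assignments as large). For *Plcg2* the mean difference was −0.18 ± 0.53 (14 of 32), and for *Syk* it was −0.53 ± 0.95 (12 of 32). None of the 8 ratios to *Tyrobp* reached the 2 of 32 that is the smallest the test allows, though with the microglia core as the reference *Hcst* did (−2.09), and a ratio that misses it is not shown to be equal.

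**Figure D4:**
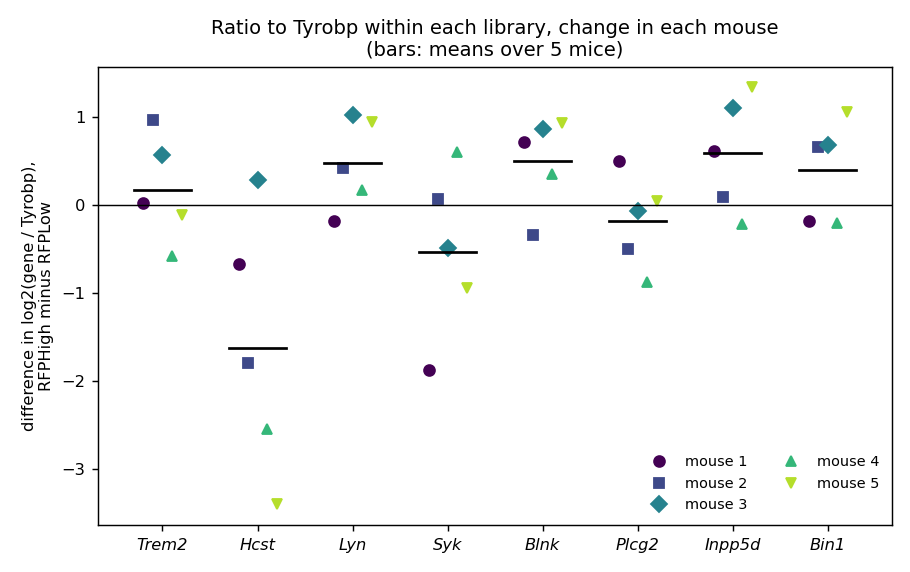
Difference in the log2 ratio of each gene to *Tyrobp* (vertical axis, RFPHigh minus RFPLow, 0.5 added to each count) in each mouse (symbols), with the mean over 5 mice as a bar. *Inpp5d*, *Blnk* and *Lyn* lie above 0 in 4 of 5 mice, *Trem2* is spread around 0, and *Hcst* is below 0 in 4 of 5.

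A list of 95 other genes of the pathway, in 9 roles, was read from the same fit. Of these 47 were tested, 20 were called higher in RFPHigh and 3 lower, where 10.1% and 11.6% of all tested genes were, and their median log2 fold change was 0.68, against −0.03 for all tested genes and 1.12 for the microglia core. On the core scale 0 were called higher by edgeR and 15 lower, where 0.261% and 72% of all tested genes were, with a median of −0.42 against −1.12 for all tested genes. In the second fit 81 could be tested, and 17 were called higher and 6 lower on the TMM scale, where 458 and 1037 of all 12270 genes were.

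Among the receptors that pair with DAP12 or DAP10, 3 of 13 were tested beside *Trem2*. *Siglech*, a lectin of microglia, rose from 563 ± 192 to 1232 ± 171 CPM (SD, n = 5 each), with a log2 fold change of 1.18 (edgeR adjusted p = 8.83e-05). *Clec5a*, a C-type lectin, had 0.82 (edgeR adjusted p = 0.0447). In the second fit 1 receptor in place of 2 was called higher, and the call of *Clec5a* was lost. Most of the others were hardly counted, and *Trem1* had 0 counts in all 10 libraries. *Klrk1*, the NK cell receptor that signals through DAP10, had 8 counts in RFPLow and 0 in RFPHigh. Of the other adaptors with the same tyrosine motif as DAP12, *Fcer1g*, the common Fc receptor chain, was called higher (log2 fold change 1.04, adjusted p = 3.87e-04), beside 0.63 for *Tyrobp*. The difference between these 2 adaptors was not tested. Relative to the microglia core *Fcer1g* had −0.06 (adjusted p = 0.785).

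For the ligands and proteases of TREM2, *Adam17*, a protease that sheds the receptor from the surface, was called higher (log2 fold change 0.68, adjusted p = 0.0149 from edgeR), whereas *Clu*, a lipoprotein ligand made mostly by astrocytes, was called lower (−1.31, 0.00991), in 4 of 5 mice. *Apoe*, another lipoprotein ligand, had 1429 ± 283 CPM in RFPLow and 1518 ± 640 CPM in RFPHigh (SD, n = 5 each) and was not called (−0.04, 0.943). The summed astrocyte markers were higher in RFPHigh in 3 of 5 mice, and single genes differed: *Slc1a2*, the most abundant of them in RFPLow, was called lower (−0.76, edgeR adjusted p = 0.0148), in 5 of 5 mice, and *Slc1a3*, the most abundant in RFPHigh, was not called (0.23, 0.599).

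Beside *Lyn* and *Syk*, 5 of 12 other kinases were tested. *Ptk2b*, a calcium-sensitive kinase, and *Btk*, which activates phospholipase C gamma 2, were called higher, with log2 fold changes of 0.90 (edgeR adjusted p = 0.0127) and 0.81 (0.0499), and *Fyn*, a Src family kinase common in T cells, neurons and oligodendrocytes, was called lower (−1.47, 0.0131). The T cell kinases *Lck* and *Zap70* had 16 and 12 counts in RFPLow and 0 in every RFPHigh library.

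Beside *Blnk*, 9 of 20 scaffolds and exchange factors were tested. Of these, 5 were called higher and 0 lower, against 10.1% and 11.6% of all tested genes. In the second fit, of 18 tested, 3 were called higher and 2 lower, where 458 and 1037 of all 12270 genes were. *Cbl*, a ubiquitin ligase that ends SYK signals, had a log2 fold change of 1.14 (edgeR adjusted p = 2.49e-04), *Grb2* 0.77 (0.00333) and *Vav1*, an exchange factor for Rac, 1.54 (0.00461). *Lcp2*, the scaffold of T cells and myeloid cells that resembles *Blnk*, had 0.90 (0.0429). The 2 genes called lower in the second fit were the T cell scaffold *Lat* and *Vav3*, with 17 and 24 counts in RFPLow and 0 in every RFPHigh library.

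Downstream of *Plcg2*, 7 of 11 genes of phospholipase C and calcium signalling were tested. Against 10.1% of all tested genes, 3 of the 7 were called higher. They were *Itpr2*, a calcium channel opened by inositol trisphosphate (log2 fold change 0.92, adjusted p = 0.00178 from edgeR), *Rasgrp3*, a Ras activator that responds to diacylglycerol (0.85, 0.00690), and *Prkcd*, a protein kinase C (0.75, 0.00799). *Rasgrp1*, best known in T cells, was called lower in the second fit, with 34 counts in RFPLow and 3 in RFPHigh. *Plcg1*, the other gamma phospholipase, had 30 and 37 counts and was not called (0.17, 0.931 in the second fit).

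Of 12 PI3 kinase and AKT genes, 6 were tested and 3 were called higher, against 10.1% of all tested genes. *Pik3cg* and *Pik3cd*, the catalytic subunits of leukocytes, had log2 fold changes of 1.28 (edgeR adjusted p = 0.00200) and 0.93 (0.0355), and *Pik3r1*, the regulatory subunit, had 0.84 (0.00284). *Akt1*, a kinase recruited by their product, had −0.07 (0.887). Beside *Inpp5d*, 5 of 10 other phosphatases were tested. *Ptpn6*, which encodes SHP1, had a log2 fold change of 1.38 (0.00573) and *Ptprc*, which encodes CD45, 0.71 (0.0203). *Inppl1*, the SHIP2 gene and the closest relative of *Inpp5d*, was not called (59.0 ± 33.8 CPM in RFPLow and 31.3 ± 14.9 CPM in RFPHigh; −0.90, adjusted p = 0.167).

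Of 8 nuclear effectors, 7 were tested. *Spi1*, which encodes PU.1, was called higher (log2 fold change 0.86, adjusted p = 0.0302 from edgeR), in 4 of 5 mice, and *Ctnnb1*, which encodes beta-catenin, was called lower (−0.92, 0.00266), in 5 of 5 mice. Relative to the microglia core, *Spi1* had −0.25 (0.400).

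**Figure D5:**
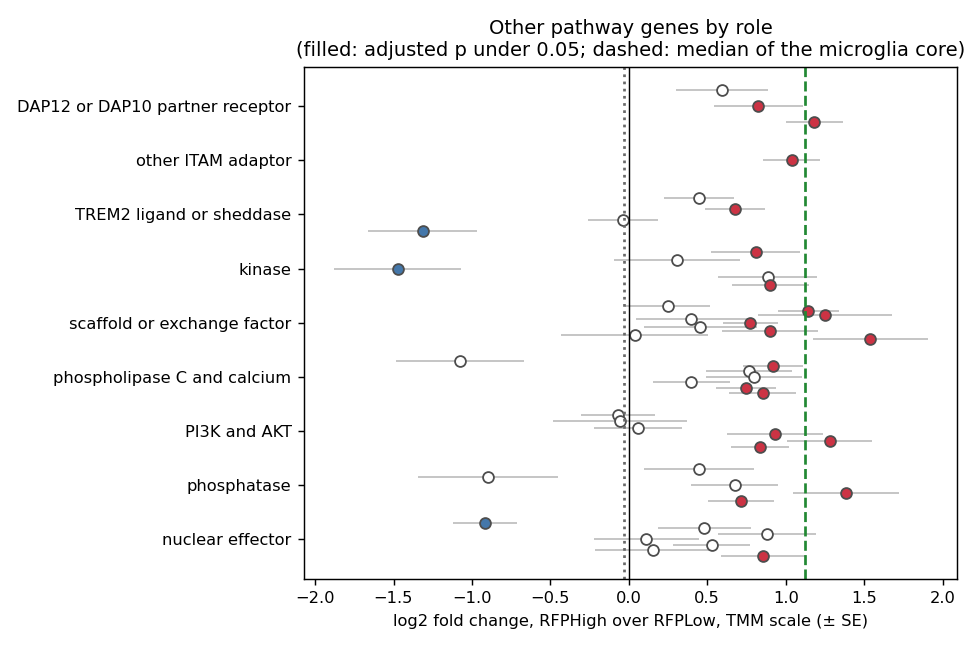
Log2 fold change of RFPHigh over RFPLow on the TMM scale (horizontal axis, ± standard error) of the 47 tested genes of the pathway list, grouped by role, filled where the adjusted p was under 0.05 (red higher, blue lower). The dotted line is the median of all tested genes (−0.03) and the dashed line that of the microglia core (1.12), and most of the 20 genes called higher lie between them, with 0 called higher relative to the microglia core.

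A second list held 24 mouse genes written down for human loci of Alzheimer risk, none of them among the 9, and 20 were tested. In RFPHigh 10 were called higher and 2 lower, where 10.1% and 11.6% of all tested genes were, with a median log2 fold change of 0.71. The smallest p-values among the higher genes belonged to *Grn*, a lysosomal progranulin (1.29, adjusted p = 5.62e-05 from edgeR), *Siglech*, which is on both lists, and *Ctsb*, a lysosomal protease (1.04, 1.92e-04). The lower genes were *Fermt2*, an integrin activator (−1.86, 2.58e-04), and *Clu*. On the core scale 0 of the 20 were called higher by edgeR and 7 lower, where 0.261% and 72% of all tested genes were, with a median of −0.38. Of the 4 genes at such loci among the 9, *Inpp5d* and *Bin1* had 0.15 and −0.05 on that scale and *Trem2* and *Plcg2* −0.29 and −0.61, none of these past the test.

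The genes whose log2 CPM followed *Inpp5d* most closely over the 10 libraries were *Nckap1l*, a part of the actin-branching WAVE complex in blood cells and microglia (Pearson r = 0.979), *Ptgs1*, which encodes cyclooxygenase 1 (0.976), *Man1a2*, a Golgi mannosidase (0.973), *Cltc*, the clathrin heavy chain (0.971), and *Cmtm6*, a membrane protein (0.964). All 5 were also called higher in RFPHigh, with log2 fold changes from 0.85 (*Cltc*) to 1.42 (*Ptgs1*). Among the genes most like *Tyrobp* were *Ctsa*, a lysosomal protease (0.955), *Bhlhe41*, a transcription factor (0.946), *Itgam*, which encodes CD11b and belongs to the microglia core (0.938), and *Slc4a7*, a bicarbonate transporter (0.930). *Bhlhe41* and *Slc4a7* were not called (adjusted p = 0.186 and 0.0993 from edgeR). These r values describe 10 libraries in 2 populations of the same 5 mice, so the population difference enters each of them. *Inpp5d* itself followed *Lyn* (r = 0.900) and *Bin1* (0.893) more closely than *Tyrobp* (0.714) or *Trem2* (0.668).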

How the data were processed

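The authors deposited raw counts per gene, made from QuantSeq 3′ tags with the FWD UMI pipeline of Lexogen. The build, annotation and strand setting of that counting are not given in the sources used here. Counts on no gene (32.1% to 48.6% of each library) and ambiguous counts (0.295% to 0.436%) stayed out of library sizes. Symbols and coordinates came from GENCODE M21 (GRCm38), which named 47224 of 47643 identifiers. edgeR 4.0.16 in R 4.3.3 was run with TMM scaling and the mouse as a block, after a test on simulated data. The methods state that both populations came from the same mice. Deviations from the group means correlated within mice at 0.22, −0.04, 0.14, −0.01 and 0.02. No 2 libraries of a population agreed within sampling noise, as repeat sequencing of 1 library would (chi-square per degree of freedom 2.04 or more).

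Named were the 9 genes, for each role of the listed genes up to 3 called genes of smallest p in each direction and genes set beside one of the 9, and the 5 genes of highest Pearson r of log2 CPM (prior count 2) with *Inpp5d* and with *Tyrobp*. Of the last, 1 gene is not reported here. *Trem1*, *Klrk1*, *Apoe*, *Lck*, *Zap70*, *Lcp2*, *Plcg1*, *Akt1* and *Inppl1* were picked after their values were seen. The genes and lists were chosen with earlier results of these data known. Ratios were compared as log2 with 0.5 added to each count. Alternatives were other scalings, filters and tests (DESeq2 1.42.0, limma 3.58.1), no block, thinned counts and each mouse left out.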

Additional observations from a re-analysis of the deposited data

Results flagged for a closer look

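Values within a population were compared in 36 groups of 5 libraries, covering the CPM of the 9 genes, their share of the *Tyrobp* counts and the microglia core share, and 2 groups had a library whose gap to its nearest neighbour was large against the range of the group. About 1 in 20 such groups stand apart by chance, or 1.8 of 36. In the RFPLow library of mouse 2, *Blnk* had 23.1% of the *Tyrobp* counts (23.15% before rounding), against 8.18% to 12.1% in the other RFPLow libraries. In the RFPLow library of mouse 4, *Plcg2* had 15.15% of the *Tyrobp* counts, against 7.41% to 8.37%. The counts on no gene took a median of 39.8% in RFPHigh, above the highest RFPLow library (37.2%), and were higher in RFPHigh in 5 of 5 mice.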

How the results depend on the processing

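Of 216 values recomputed with all mice, 180 kept their direction and their side of the threshold. Apart from the microglia core scale, the calls of *Lyn*, *Blnk*, *Inpp5d* and *Bin1* were kept under each alternative. Where a result below changed, the cause was not tested unless the alternative itself states it.

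On the microglia core scale, 11 genes were called higher (2 with the fold threshold) and 3032 lower. Of the 9 genes, 0 were higher, 0 with the fold threshold, and 2 lower, *Tyrobp* in this fit and *Hcst* in the second fit. The log2 fold changes were −0.29 for *Trem2*, −0.47 for *Tyrobp*, −1.81 for *Hcst*, 0.0211 for *Lyn*, −1.01 for *Syk*, 0.0344 for *Blnk*, −0.61 for *Plcg2*, 0.15 for *Inpp5d* and −0.0546 for *Bin1*. Of the pathway list 0 were higher and 15 lower, and of the Alzheimer list 0 and 7. With more weakly counted genes tested, 939 (at least 1 count) and 1037 (at least 10) were lower, and 6 of the pathway list. With counts on no gene in the library sizes, 283 genes were higher (149 with the fold threshold), 1 of the 9 with the fold threshold, and *Trem2*, *Tyrobp* and *Syk* had 0.66, 0.48 and −0.0753. *Trem2* and *Tyrobp* had 0.79 and 0.61 with DESeq2 and lost the call, as did *Tyrobp* with unscaled library sizes (0.63). *Syk* had −0.18 with thinned counts. With the core of 10 genes, *Tyrobp* had −0.44 relative to it. With the core as reference in place of *Tyrobp*, the mean differences in log2 ratio were −0.29 for *Trem2*, −2.09 for *Hcst* (2 of 32 assignments as large), 0.0141 for *Lyn*, −0.99 for *Syk*, 0.0419 for *Blnk*, −0.64 for *Plcg2*, 0.12 for *Inpp5d* and −0.0624 for *Bin1*.

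Without the mouse as a block, *Blnk* relative to the core had −0.00251. Of the 9 genes, 6 were then called higher, among 435 of all tested genes, and 3 of them with the fold threshold, among 240. With each mouse left out, the 9 genes held 4 to 6 called higher, among 306 to 435 of all tested genes, and 2 to 5 with the fold threshold (2 without mouse 4), among 211 to 287. *Trem2* ranged from 0.61 to 1.07, *Tyrobp* from 0.45 to 0.82, *Hcst* from −1.10 to −0.33, *Plcg2* from 0.31 to 0.62 and *Syk* from −0.33 to 0.44. Relative to the core, *Tyrobp* ranged from −0.62 to −0.37, *Hcst* from −2.19 to −1.49, *Lyn* from −0.0573 to 0.14, *Blnk* from −0.0794 to 0.30, *Bin1* from −0.13 to 0.0575, *Trem2* from −0.45 to −0.13, *Syk* from −1.40 to −0.70, *Plcg2* from −0.82 to −0.52 and *Inpp5d* from 0.0549 to 0.30. The differences in log2 ratio to *Tyrobp* ranged from −0.0219 to 0.36 for *Trem2*, −2.10 to −1.18 for *Hcst*, 0.34 to 0.64 for *Lyn*, −0.81 to −0.19 for *Syk*, 0.40 to 0.72 for *Blnk*, −0.34 to −0.00377 for *Plcg2*, 0.40 to 0.79 for *Inpp5d* and 0.24 to 0.55 for *Bin1*. At this depth *Hcst* and *Syk* had at most 16 counts in a library, which limits what can be said of them.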
